A study of Mus musculus with 2 samples.

Results

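The mitochondrially encoded genes are the 37 genes of chromosome M whose name in the GENCODE M21 annotation starts with mt-, out of 55536 annotated genes in the deposited gene tables. They comprise 13 mRNAs, 2 ribosomal RNAs (rRNAs) and 22 transfer RNAs (tRNAs), and each has 1 transcript model. They were measured in RNA described as nucleoplasmic, with the fraction tagged as nucleus, from mouse macrophages grown from bone marrow (BMDM, strain C57BL/6J) after 40 min with Lipid A, the TLR4-activating part of lipopolysaccharide, at 100 ng/ml. The 2 libraries, biological replicates 1 and 2, form a single group, and both carry the same donor identifier, so their spread may be smaller than that between animals. Ribosomal RNA was depleted before sequencing, and the age and sex of the animals are not given in the labels. Untreated cells, cytoplasm and other times were not analysed here, and no test between conditions exists. Means are given ± SD (n = 2).

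Mitochondrial DNA is a small circle, present in many copies per cell, and almost all of its sequence is used for genes. The mRNAs encode core subunits of the respiratory chain, namely of complexes I, III and IV, and of the ATP synthase, complex V, while all other subunits are encoded in the nucleus and imported. Both strands are transcribed as long precursors by the polymerase POLRMT, and the tRNAs that punctuate them are cut out to release the mRNAs and rRNAs. Mature mitochondrial RNA lies inside the organelle, outside the nucleus. In macrophages, respiration and the mitochondrial response to TLR4 ligands are well-studied parts of activation.

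Annotated genes held 19498126 expected counts (replicate 1) and 18398454 (replicate 2), an expected count being the estimated number of fragments of a gene. Fragments averaged 206 and 230 nt, read from model length less effective length in the alignment-based estimates. In the second deposited estimate, derived from FASTQ files, the same difference averaged 164 and 236 nt. The RNA input was 1 µg for the first and 500 ng for the second library. Input and replicate cannot be told apart. All 11 macrophage markers listed were detected, with Lyz2 highest at 1542 ± 393 TPM. Of 22 markers of T cells, B cells, neutrophils, erythroid cells and fibroblasts, 1 was detected, Cd4 at 19.2 ± 4.26 TPM, and 7 had no counts. The summed TPM of the macrophage markers was 5610 in replicate 1 and 3502 in replicate 2, against 25.7 and 17.7 for the other cell types. TPM, a length-scaled abundance normalised to the same total in every table, divides counts by effective length, the model length less the fragment length. The purity of the fraction was not measured.

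The models lie close together on chromosome M (mm10), and some of them overlap. The 37 models span positions 1 to 15422, each as a single exon, with 28 on the plus strand and 9 on the minus strand. They cover 15365 bases, and of the 36 junctions between neighbours 12 have no base between the models and 9 overlap. The longest overlap on a strand is that of the complex V mRNAs mt-Atp8 (ENSMUSG00000064356.3, chrM:7766-7969) and mt-Atp6 (ENSMUSG00000064357.1, chrM:7927-8607), which share 43 bases in different reading frames. The complex I mRNAs mt-Nd4l (ENSMUSG00000065947.3, chrM:9877-10173) and mt-Nd4 (ENSMUSG00000064363.1, chrM:10167-11544) share 7 bases. The ends of mt-Nd5 (ENSMUSG00000064367.1, chrM:11742-13565) and mt-Nd6 (ENSMUSG00000064368.1, chrM:13552-14070) overlap by 14 bases on opposite strands. The bases of these stretches are part of both models, on opposite strands for the last pair. The expected counts of mt-Atp8, mt-Nd5 and mt-Nd6 were nonetheless whole numbers in both libraries. Those of mt-Atp6, mt-Nd4l and mt-Nd4 were not, but their sums with the chromosome 1 copies described below were. The sequences are shown, plus strand, 5′ to 3′, with the shared bases in capitals.
mt-Atp8 and mt-Atp6, chrM:7915-7981: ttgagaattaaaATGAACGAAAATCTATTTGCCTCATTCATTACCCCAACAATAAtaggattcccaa
mt-Nd4l and mt-Nd4, chrM:10146-10194: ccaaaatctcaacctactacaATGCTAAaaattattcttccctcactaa
mt-Nd5 and mt-Nd6, chrM:13531-13586: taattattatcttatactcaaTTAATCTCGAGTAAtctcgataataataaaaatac

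The shared stretches of the first 2 pairs open with the start codon of the downstream model and close with the stop codon of the upstream one. Levels are given per model, and RNAs that carry both models of a pair were not separated. Of the 13 mRNA models 9 start with ATG, mt-Nd1 starts with GTG, mt-Nd2 with ATA, mt-Nd3 with ATT and mt-Nd5 with ATC. Models of 3 mRNAs, mt-Co3, mt-Nd4 and mt-Cytb, end with a single T in place of a whole stop codon. As background, such stop codons are completed to TAA when the RNA is cut at the adjoining tRNA and polyadenylated. The last bases of these models are shown with the lone T in capitals.
mt-Co3, chrM:9370-9390: ccatttattgatgaggatctT
mt-Nd4, chrM:11524-11544: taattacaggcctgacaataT
mt-Cytb, chrM:15268-15288: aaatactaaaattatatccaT

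Together the 37 genes held 4.79% (replicate 1) and 4.50% (replicate 2) of all expected counts, a mean of 4.64% ± 0.205. The mRNAs held nearly all of this, 4.54% ± 0.154, the rRNAs 0.104% ± 0.0502, and the tRNAs 0% in both libraries. At a threshold of 1 TPM in both libraries all 13 mRNAs and both rRNAs were detected, 15 of 37 members, and none of the 22 tRNAs. Over all genes 19.4% were detected by that rule, and over protein-coding genes 39.99%. The mRNAs had a median of 3559 TPM in replicate 1 and 2472 in replicate 2, against 8.64 and 6.12 TPM for detected protein-coding genes. Of the 20 protein-coding genes with the highest mean TPM, 9 were mitochondrial as deposited. For scale, the nuclear RNA Malat1 had 24466 ± 3364 TPM, and the cytosolic ferritin mRNA Fth1 had 727 ± 279.

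Of the 13 mRNAs 7 share identical stretches with copies on chromosome 1 that GENCODE annotates as pseudogenes, and for 6 of these the copy held over 1000 expected counts in both libraries. Of gene models off chromosome M, 11 matched a mitochondrial model over at least 100 bases at 95% identity or more. Of these 7 lie side by side on chr1:24611535-24616197, minus strand, a block of 4663 bases that runs in the mitochondrial order from the end of mt-Co1 into mt-Nd4. Gm28661 matches mt-Co2 (the complex IV subunit II, ENSMUSG00000064354.1, chrM:7013-7696) over all of its 681 bases, and Gm10925 matches mt-Atp6 over 678. Gm28437 matches mt-Co3 (complex IV subunit III, ENSMUSG00000064358.1, chrM:8607-9390) over 783 bases, Gm10222 matches mt-Nd4l over 294, and Gm28439 matches the first 876 of the 1378 bases of mt-Nd4. These 5 pairs have no mismatch over the matched bases. The copy models are only shorter at the 3′ end, by 3 bases for mt-Co2, mt-Atp6 and mt-Nd4l and by 1 base for mt-Co3.

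The ends of mt-Co2 and its copy are shown with the bases that the copy model lacks in capitals. These 3 bases are all that separates the models.
mt-Co2, chrM:7661-7696, plus strand: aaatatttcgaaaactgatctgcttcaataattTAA
Gm28661, chr1:24614885-24614917, minus strand: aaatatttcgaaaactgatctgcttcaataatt

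The 2 remaining pairs differ by a single base each. Counted from the first base of the mitochondrial model, mt-Nd3 (complex I, ENSMUSG00000064360.1, chrM:9459-9806) and Gm28438 differ by T3C over 345 bases. The last 483 bases of mt-Co1 (complex IV subunit I, ENSMUSG00000064351.1, chrM:5328-6872) and Gm29216 differ by A1066T. The differing base is in capitals in the windows.
mt-Nd3, chrM:9459-9481, plus strand: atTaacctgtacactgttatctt
Gm28438, chr1:24613097-24613119, minus strand: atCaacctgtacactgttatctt
mt-Co1, chrM:6390-6413, plus strand: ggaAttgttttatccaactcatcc
Gm29216, chr1:24616165-24616188, minus strand: ggaTttgttttatccaactcatcc

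Counts were divided very unevenly between members and copies. mt-Co2 was given 2391 expected counts in replicate 1 and 1590 in replicate 2, while Gm28661 was given 84981 and 50573, or 97.3% and 97.0% of the pair. Gm10925 took 91.6% and 90.7% of its pair with mt-Atp6, and Gm28437 79.6% and 83.5% of its pair with mt-Co3. The share differed more between the libraries for mt-Nd3, with 38.5% and 57.7% in Gm28438, for mt-Nd4l, with 46.7% and 85.7% in Gm10222, and for mt-Nd4, with 19.9% and 43.7% in Gm28439. For mt-Co1, whose model runs far past its chromosome 1 copy, Gm29216 had 132 and 52.3 counts. Together with Gm13340, a copy on chromosome 2, it held 0.0352% and 0.0195% of the counts of mt-Co1 and its copies. The 4 other copies, Gm13341, Gm13340 and Gm13339 on chromosome 2 and Gm4076 on chromosome 13, had at most 18.5 counts in a library. All 11 copies together took 1.18% of expected counts in both replicates, so members and copies took 5.83% ± 0.204.

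The second estimate in the deposit, a transcript table derived from FASTQ files, divided the same pairs differently. It gave mt-Atp6 70514 and 88070 estimated counts and Gm10925 634 and 1.78, or 0.892% and 0.002% of the pair. It gave Gm10222 no counts, and Gm28661 67.4% and 87.8% of its pair. The FASTQ-derived count was over 2-fold above the alignment-based one in both libraries for 5 members, mt-Co2, mt-Atp6, mt-Co3, mt-Nd4l and mt-Rnr2, while 20.8% of all genes with a mean count of at least 10 passed that fold. Per mRNA the ratio of the tables ran from 1.02 to 13.1 in replicate 1 and from 1.13 to 16.1 in replicate 2. With copies added in both tables it ran from 1.08 to 1.23 and from 1.35 to 1.83, and mt-Rnr2 was the member still over 2-fold in both. The median over all genes was 1.37 and 1.81, as the FASTQ-derived totals were larger. Across the mRNAs the sums of member and copy thus spanned a narrower range of ratios than the members alone. For mt-Nd4 the member alone had 1.02 and 1.13 and the sum 1.12 and 1.43. Its sum was thus the closer to the median over all genes.

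**Figure D1:**
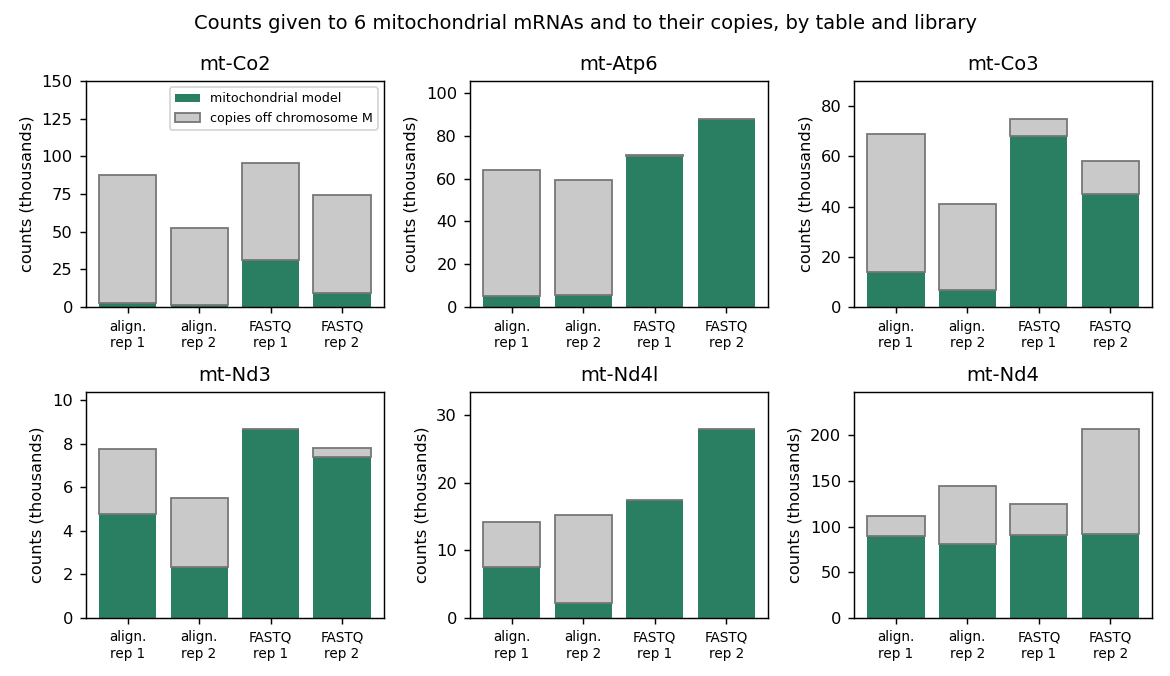
Stacked bars give the counts (in units of 1000) of 6 mitochondrial mRNAs (green) and of their copies off chromosome M (grey) in the alignment-based (align.) and FASTQ-derived tables of each replicate; each panel has its own axis from 0. For mt-Atp6 in replicate 1 the green part goes from 5388 to 70514 counts between tables, while for mt-Nd4 it is the grey part that differs more.

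The authors' posterior mean count, an average over possible assignments within a library, differed from the expected count by more than 1.5-fold for 3 of these 6 genes. For mt-Co2 it was 8684 and 6476 against expected counts of 2391 and 1590. It was 10111 and 10324 for mt-Atp6, against 5388 and 5486, and 29769 and 17193 for mt-Co3, against 14099 and 6754. For mt-Nd3, mt-Nd4l and mt-Nd4 it was close to the expected count, such as 7655 against 7523 for mt-Nd4l in replicate 1. Levels of these members are therefore given both as deposited and with the copy's counts added. Whether the nuclear copies are transcribed cannot be told apart from mitochondrial reads over identical bases.

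Complex IV mRNAs encode the 3 core subunits of cytochrome c oxidase. mt-Co1 had 13820 TPM in replicate 1 and 8358 in replicate 2 and the most expected counts of any member, 397973 and 314868. mt-Co2 had 233 and 122 TPM as deposited, the lowest of the mRNAs in both libraries, and 8499 and 4012 with its copy added. mt-Co3 had 1134 and 426 TPM as deposited and 5557 and 2584 with its copy. All 3 had a higher TPM in replicate 1, with or without copies. So did every other mRNA but mt-Atp8 in the deposited values. Over all genes with a mean count of at least 10, the median log2 ratio of TPM + 1, replicate 2 over replicate 1, was -0.36. The 59.4-fold and 141-fold ranges across the 13 mRNAs were set by mt-Co2, and with copies added the ranges were 6.87-fold and 11.0-fold.

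Complex I takes electrons from NADH, and 7 of its subunits are mitochondrial. mt-Nd1 (ENSMUSG00000064341.1, chrM:2751-3707) had 4175 and 3755 TPM and mt-Nd5 4117 and 3199. mt-Nd2 (ENSMUSG00000064345.1, chrM:3914-4951), whose copy had no expected counts, had 2013 and 1866 and was the lowest mRNA in replicate 1 once copies were added. mt-Nd3 had 1532 and 665 TPM as deposited and 2491 and 1571 with its copy, and these values place it beside mt-Nd2. mt-Nd4 had 3546 and 2472 as deposited and 4428 and 4387 with its copy. mt-Nd4l had 3559 and 983, and 6675 and 6858 with its copy, so that this gap was present only without the copy. The FASTQ-derived TPM of mt-Nd4l, 2171 and 3563, was higher in replicate 2.

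Complex III has a single mitochondrial subunit, cytochrome b, whose mRNA mt-Cytb (ENSMUSG00000064370.1, chrM:14145-15288) had 4003 and 3175 TPM. In complex V, mt-Atp6 had 527 and 425 TPM as deposited and 6284 and 4589 with its copy. mt-Atp8 had 11402 and 17254 TPM, the highest value of all mRNAs in replicate 2. That level rests on an effective length of 28.2 and 17.8 nt for a model of 204, since few fragments fit inside it. Measured by counts per kilobase of full length, scaled to library size (CPM per kilobase), mt-Atp8 had 1737 and 2349, against 13211 and 11077 for mt-Co1. No annotated copy matched mt-Atp8 over at least 100 bases, although Gm10925 holds the 43 bases that mt-Atp8 shares with mt-Atp6. The chromosome 1 block has 233 bases between Gm10925 and Gm28661 where chromosome M has 230 between mt-Co2 and mt-Atp6.

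With copies added, the order by mean TPM ran mt-Atp8, mt-Co1, mt-Nd4l, mt-Nd6, mt-Co2, mt-Atp6, mt-Nd4, mt-Co3, mt-Nd1, mt-Nd5, mt-Cytb, mt-Nd3, mt-Nd2, mt-Rnr1, mt-Rnr2. The places of mt-Atp8, mt-Nd4l and mt-Nd3 rest on effective lengths under 200 nt, such as 98.3 and 77.3 nt for mt-Nd4l. An order by counts per kilobase of full length with copies added was not computed. Of the 14 neighbouring pairs in the order by mean TPM 10 had overlapping values between the libraries. The 4 pairs whose values did not overlap were mt-Co1 above mt-Nd4l, mt-Atp6 above mt-Nd4, mt-Cytb above mt-Nd3 and mt-Nd2 above mt-Rnr1. As deposited, 11 of 14 pairs overlapped. Overlap was judged across libraries that differed in their general TPM level, so an overlapping pair can keep its order within each library. As deposited, mt-Nd1, mt-Nd5 and mt-Cytb ranked 4, 5 and 6 in both libraries. With copies added, mt-Rnr1 and mt-Rnr2 ranked 14 and 15 in both, while mt-Nd4l and mt-Nd6 changed order between them. All 13 mRNAs were among the 20 highest protein-coding genes once copies were added to the mitochondrial genes, with no such addition for nuclear genes.

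**Figure D2:**
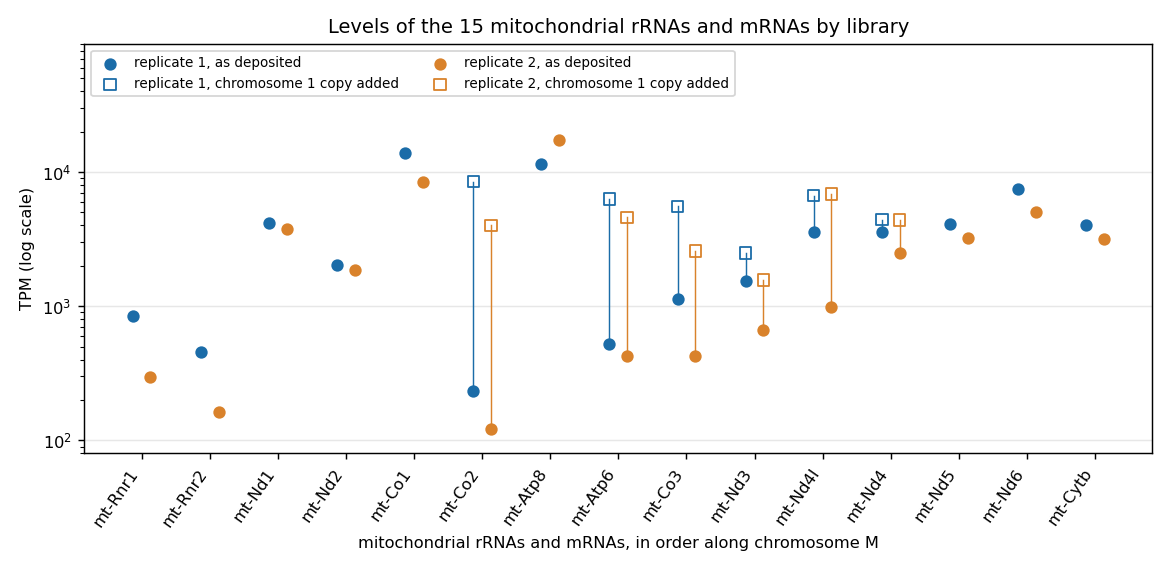
Points give TPM (log axis) of the 2 rRNAs and 13 mRNAs in each library, in order along chromosome M; filled points are deposited values and open squares add the chromosome 1 copy. mt-Co2 rises from 233 to 8499 TPM in replicate 1 when its copy is added, and within each library both rRNAs lie below every mRNA once copies are added.

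mt-Nd6 is the only mRNA on the minus strand, and its RNA has another base composition. Its sense strand holds 28.1% G and 5.97% C, while the 12 plus-strand mRNAs hold 5.88% to 16.1% G and 22.1% to 29.97% C. Its expected counts were 50689 and 41451, and its level was 7525 and 5005 TPM. That was 2.12-fold and 2.31-fold the median of the other 12 mRNAs as deposited, 1.14 ± 0.0875 on the log2 scale. With copies added the factor fell to 1.51 and 1.29, and by the FASTQ-derived TPM, at 2892 and 2813, it was 1.72 and 1.87. The level of mt-Nd6 was thus above the median of the plus-strand mRNAs under each of these measures, by an amount that depended on the copies. The strand setting of the counting is not given in the sources used here, and without strand, reads of mt-Nd6 cannot be told apart from precursor RNA of the opposite strand.

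The rRNAs of the mitochondrial ribosome were below every mRNA in both libraries once copies were added, and as deposited mt-Co2 was below both. mt-Rnr1 (12S, ENSMUSG00000064337.1, chrM:70-1024) had 13691 expected counts and 850 TPM in replicate 1 and 6203 counts and 299 TPM in replicate 2. mt-Rnr2 (16S, ENSMUSG00000064339.1, chrM:1094-2675) had 13455 and 6339 counts, and 455 and 164 TPM. Both were lower in replicate 2 by counts and by TPM. mt-Rnr2 stood below mt-Rnr1 by 0.90 and 0.87 on the log2 TPM scale, -0.89 ± 0.0245, a difference larger than its spread. The FASTQ-derived table gave 433 and 180 TPM for mt-Rnr1 and 441 and 119 for mt-Rnr2, a difference of 0.03 in replicate 1 and -0.60 in replicate 2, so the order of the rRNAs held in replicate 2 only. How far the depletion of ribosomal RNA removed these 2 was not tested.

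The tRNAs, with models of 59 to 75 nt, are shorter than the fragments. All 22 had an effective length of 0 and no expected counts in both alignment-based libraries, so a 0 there sets no upper limit on their RNA. The FASTQ-derived table gave them 1798 and 1557 estimated counts, or 0.00671% and 0.00465% of the total, and these are described here as counts, since their effective lengths of 13 to 24 nt make their TPM uncertain. The most counts in replicate 1 went to mt-Ts1, a serine tRNA, with 736 there and 237 in replicate 2, and the most in replicate 2 to mt-Tc, the cysteine tRNA, with 320 there and 184 in replicate 1. The fewest went to mt-Td, the aspartate tRNA, with 0 and 3, and mt-Tv, the valine tRNA, with 3 and 5. Their sequences, read 5′ to 3′ on the strand of the gene with the anticodon in capitals, are shown for these extremes.
mt-Ts1, chrM:6870-6938, minus strand: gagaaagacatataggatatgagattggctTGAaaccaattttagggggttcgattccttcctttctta
mt-Tc, chrM:5192-5257, minus strand: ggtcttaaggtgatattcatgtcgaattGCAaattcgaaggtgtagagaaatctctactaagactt
mt-Td, chrM:6942-7011, plus strand: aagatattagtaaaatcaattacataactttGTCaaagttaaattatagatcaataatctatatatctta
mt-Tv, chrM:1025-1093, plus strand: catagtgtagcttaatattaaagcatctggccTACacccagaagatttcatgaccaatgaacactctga

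The counts fell unevenly on the strands. The 8 minus-strand tRNAs held 93.5% of tRNA counts in replicate 1 and 75.9% in replicate 2, with medians of 117 and 157 counts, against 6.5 and 24 for the 14 plus-strand ones. On the minus strand mt-Tp (proline) had 334 and 159, mt-Te (glutamate) 297 and 48, mt-Tn (asparagine) 49 and 202, and mt-Ty (tyrosine) 48 and 156. The lowest minus-strand tRNAs, mt-Ta (alanine) with 18 and 31 and mt-Tq (glutamine) with 16 and 29, lay within the range of the plus strand. There the highest was mt-Th (histidine), with 23 and 82, followed by mt-Ts2 (serine) with 19 and 56 and mt-Tr (arginine) with 4 and 50. The leucine tRNAs mt-Tl2 and mt-Tl1 had 9 and 43, and 7 and 30, mt-Tk (lysine) 10 and 31, mt-Tm (methionine) 6 and 28 and mt-Tg (glycine) 9 and 20. mt-Ti (isoleucine), with 6 and 13, mt-Tt (threonine), with 3 and 8, mt-Tw (tryptophan), with 6 in each, and mt-Tf (phenylalanine), with 11 and 0, had low counts as well. The strands thus differed in their medians and overlapped in their ranges. The libraries differed widely for mt-Te, mt-Ts1 and mt-Tp, which had log2 ratios of replicate 2 over replicate 1 of -2.91, -1.96 and -1.40 after scaling, while mt-Tn had 1.67 and mt-Tr 2.84. As with mt-Nd6, the minus-strand models lie opposite the plus-strand precursor, and without the strand setting the source strand of these reads cannot be told apart.

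**Figure D3:**
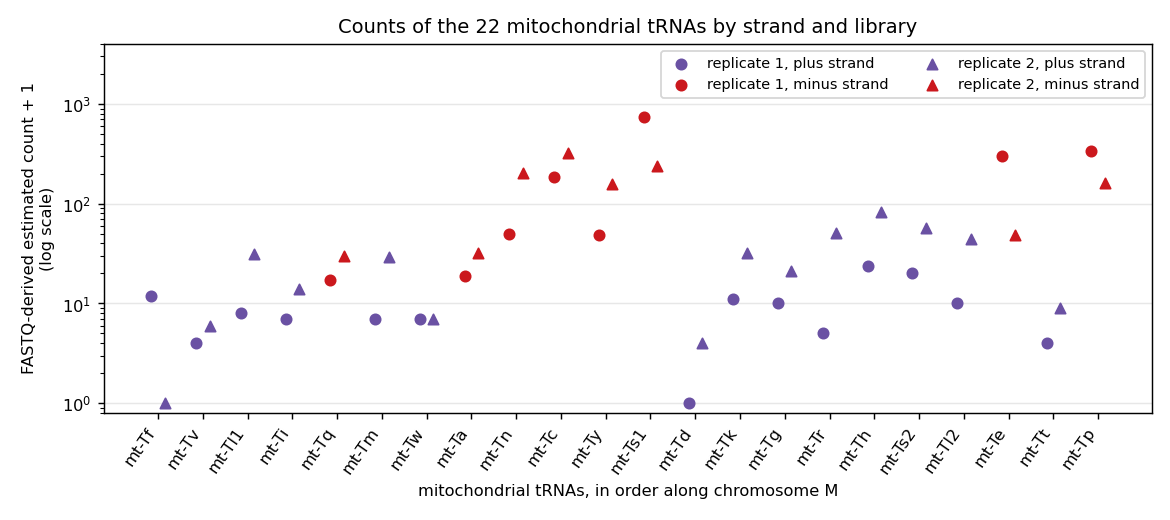
Points give the FASTQ-derived estimated count plus 1 (log axis) of each mitochondrial tRNA in order along chromosome M, circles for replicate 1 and triangles for replicate 2, purple for the plus and red for the minus strand. mt-Ts1 reaches 736 counts in replicate 1, while the plus-strand tRNAs stay at or below 82.

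The nuclear genome supplies the remaining subunits of the same complexes. The list of 74 nuclear-encoded subunits of complexes I, III, IV and V had a median of 6.11 TPM in replicate 1 and 4.20 in replicate 2. Of these subunits 70 of 74 were detected, against 39.99% of all protein-coding genes. The mitochondrial mRNAs stood above the detected subunits by 8.91 ± 0.0596 in median log2(TPM + 1), and by 9.58 ± 0.0199 with copies added. Copies of the nuclear subunits were not searched for, so the second value adds copies on the mitochondrial side only. By complex the nuclear medians were 3.98 ± 0.792 TPM for I (34 of 37 detected), 5.64 ± 0.290 for III (9 of 9), 11.4 ± 2.04 for IV (10 of 11) and 9.10 ± 1.91 for V (17 of 17). The highest subunit was Atp5b, the catalytic β subunit of the ATP synthase, at 44.4 ± 5.07 TPM, below the deposited 233 and 122 TPM of mt-Co2 in both libraries. Cox7c led complex IV at 32.7 ± 5.30, Ndufb1-ps complex I at 16.1 ± 9.26 and Uqcrh complex III at 13.1 ± 2.06. The lowest were Ndufb6 at 0.765 ± 0.502, Atp5g1 at 1.21 ± 0.219, Cox7b at 1.93 ± 1.42 and Uqcrc2 at 2.40 ± 1.28 TPM. Complex II, succinate dehydrogenase, has no mitochondrial subunit, and its 4 nuclear mRNAs ran from Sdhc at 4.19 ± 1.58 to Sdha at 21.8 ± 7.81 TPM. By expected counts the 74 subunits took 0.0537% and 0.0520% of the libraries, where the 13 mitochondrial mRNAs took 4.65% and 4.43%.

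**Figure D4:**
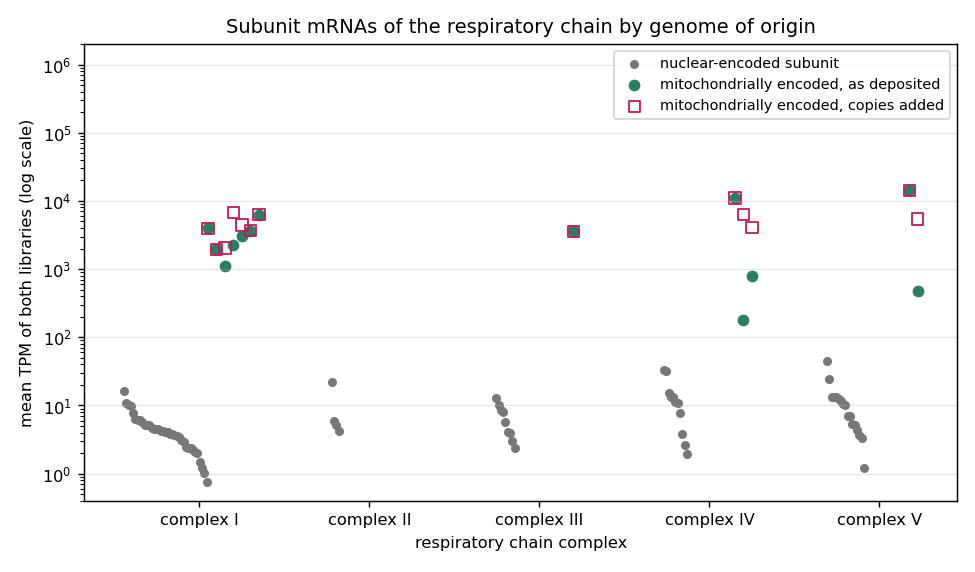
Points give the mean TPM of both libraries (log axis) for each subunit mRNA by complex, grey for nuclear-encoded, green for mitochondrially encoded as deposited and open squares with copies added. The highest nuclear subunit, Atp5b at 44.4 TPM, lies below the lowest mitochondrial mRNA, mt-Co2, which had 233 and 122 TPM as deposited.

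Genes whose products transcribe, process and degrade mitochondrial RNA were measured as well. At the same threshold 29 of 42 such nuclear genes passed, against 39.99% of all protein-coding genes. The list had median levels of 2.68 and 1.85 TPM. The highest were Mterf3, a regulator of mitochondrial transcription and ribosome assembly, at 20.6 ± 2.14 TPM, the DNA polymerase gene Polg at 13.9 ± 2.23 and Fastk, an RNA-binding protein gene needed for mt-Nd6 mRNA, at 13.4 ± 2.21. The lowest were Mterf2 at 0.05 ± 0.0283, Mterf1b at 0.28 ± 0.184 and the rRNA methyltransferase gene Mrm3 at 0.36 ± 0.0424. Detection was 6 of 14 for transcription and replication, 11 of 15 for RNA processing and 12 of 13 for RNA stability and decay. The transcription and replication list thus lay near the share over protein-coding genes.

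The libraries were compared with each other by the log2 ratio of replicate 2 over replicate 1 of CPM, counts scaled to library size by the TMM method, with 1 library a side and no test. The 13 mRNAs had a median ratio of -0.04 as deposited (7 of 13 lower in replicate 2) and 0.13 with copies added (6 of 13 lower), against -0.0042 for all genes. Of the 15 members tested 5 were lower in replicate 2 by over 1.5-fold, against 10.04% of all genes, and none was higher by that factor, against 6.59%. The 5 were mt-Nd4l at -1.69, mt-Rnr1 at -1.04, mt-Rnr2 at -0.99, mt-Co3 at -0.96 and mt-Nd3 at -0.94. With copies added mt-Nd4l had 0.20 and mt-Nd3 -0.40, so neither pair passed 1.5-fold as a sum, while mt-Co2 and mt-Co3 had -0.65 each and joined the rRNAs as the 4 past 1.5-fold.

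The 7 mRNAs without a copy of over 1000 counts had ratios from -0.24 to 0.45. mt-Atp8 had a ratio of 0.45, mt-Nd2 0.36, mt-Nd1 0.31, mt-Cytb 0.14, mt-Nd5 0.13, mt-Nd6 -0.19 and mt-Co1 -0.24. For scale, 5% of the 2699 genes with a mean count of at least 1000 had a ratio under -0.44 and 5% one over 0.40. All 3 complex IV mRNAs were lower in replicate 2 and took 2.84% and 2.22% of counts with copies added, although mt-Co1 lay within those bounds. The complex I mRNAs mt-Nd6 and, with or without its copy, mt-Nd3 were lower as well. mt-Nd1, mt-Nd2, mt-Nd5, mt-Cytb and mt-Atp8 were higher. For mt-Nd4l, mt-Nd4 and mt-Atp6 the sign changed when the copies were added. The ratio of mt-Nd4 went from -0.04 to 0.47 and that of mt-Atp6 from 0.12 to -0.02. mt-Atp8 and, with its copy, mt-Nd4 lay above the upper bound of 0.40. The FASTQ-derived counts gave -0.29 for mt-Co1, -0.94 for mt-Co3, -1.12 for mt-Rnr1 and -1.68 for mt-Rnr2. Fragment length and RNA input differed between the libraries, and their part in these ratios was not tested.

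**Figure D5:**
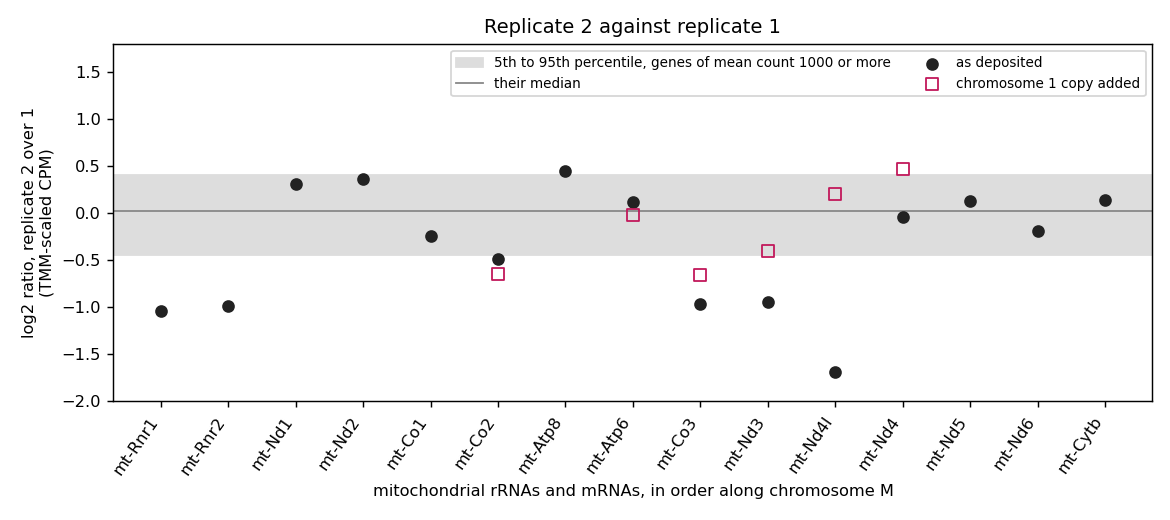
Points give the log2 ratio of replicate 2 over replicate 1 (TMM-scaled CPM) of the rRNAs and mRNAs in order along chromosome M, black as deposited and open squares with the chromosome 1 copy added; the grey band holds the 5th to 95th percentile of genes with a mean count of at least 1000. mt-Nd4l moves from -1.69 to 0.20 when its copy is added, and both rRNAs lie near -1.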

How the data were processed

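Per the labels and notes deposited with the tables, the authors used mm10 and GENCODE M21. Which aligner, quantifiers and strand option were used is not given in the sources used here. The authors' deposited alignment-based tables give, by their headers, expected counts, posterior mean counts, TPM and posterior mean TPM, and their FASTQ-derived tables give estimated counts and TPM. The bounds of the credibility interval, a signal on the TPM scale, were deposited by the authors and are not printed.

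Members were found by name. All 37 had the same values in the gene and alignment-based transcript tables. Numeric identifiers (26248), spike-ins and phiX were left out of library sizes. Copies were found with blastn 2.17.0 against the GENCODE M21 transcripts, and each copy's counts were added to its best-matching member, TPM being scaled by the count. Printed sequences came from those transcripts. Expected counts were rounded for TMM scaling in edgeR 4.0.16 (R 4.3.3), over genes with a mean count of at least 10, with a prior count of 2. The scaling was tested on simulated counts. DESeq2 1.42.0 size factors were an alternative. Members, lists and the naming rule (all members, extremes of each list, the 5 copies with most counts; further copies, and the sequence windows of mt-Nd5 with mt-Nd6 and of mt-Nd3 and mt-Co1 with their copies, were chosen after their values were seen) were chosen with earlier results of these data known. The design gives 1 group, so no p-value was computed.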

Additional observations from a re-analysis of the deposited data

How the results depend on the processing

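Adding the copies was done for mitochondrial genes only and was, for the mRNA levels and ratios, chosen after seeing the data. With them the share of the 37 genes became 5.83%, the median of the mRNAs 4785 TPM, the log2 excess of mt-Nd6 over the other mRNAs 0.48, and the log2 gap to nuclear subunits 9.58, while the median replicate ratio of the mRNAs changed sign to 0.13. FASTQ-derived values gave a share of 4.22% for all members and 0.00568% for the tRNAs, 35 detected members, a median of 1606 TPM, an excess of 0.84 for mt-Nd6, a log2 difference of -0.29 between mt-Rnr2 and mt-Rnr1, a gap of 8.34, and replicate ratios of -0.016 for the mRNAs and -1.46 for the rRNAs summed, where the main value was -1.02. Those 35 detected members included tRNAs with few counts, such as mt-Tv with 3 and 5, whose short effective lengths make TPM uncertain. The share of all genes detected by FASTQ-derived TPM was not computed. By TPM the share of all members was 5.35%. Counts per kilobase of full length gave a median of 2064, a difference of -0.73 between the rRNAs and a gap of 8.51. Without the 3 mRNAs of effective length under 200 nt the excess of mt-Nd6 was 1.05 and the gap 9.06. The gap was 9.14 with a pseudocount of 0.1 and 8.72 by posterior mean TPM. The mRNA ratio was -0.053 scaled by total counts, -0.029 with no count filter, -0.056 with a mean count of at least 100 and -0.52 by TPM + 1, a scale on which the median of all genes was -0.36 and the rRNA ratio -1.49. The cause of these shifts was not tested. Leaving out a replicate gave 4.50% to 4.79% for all members, 0.0682% to 0.139% for rRNAs, 2472 to 3559 for the median TPM, 1.08 to 1.21 for mt-Nd6, -0.90 to -0.87 between the rRNAs and 8.87 to 8.95 for the gap. A replicate ratio of the tRNAs could not be computed from alignment-based counts, which are all 0. The FASTQ-derived counts gave a median of 1.16 over 16 tRNAs. No paired analysis was possible because there is 1 group.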
